A study of Mus musculus with 7 samples.

Results

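The genes described here are 34 genes of autophagy and the lysosome, chosen by name for their known function and found in the study's expression table under their gene symbols. All 34 were present and all 34 were tested there, out of 15966 genes tested and 37975 listed. Of the 7 samples, each in a group of its own, 3 bear on them. Polyadenylated RNA was profiled in 2-day myotubes, formed by mouse primary myoblasts kept 48 hours in medium with 5% horse serum, and in the same kind of myoblasts in growth medium. Both RNA samples carried an empty retroviral vector, and the myoblasts descended from satellite cells that were sorted from mice of 4 to 6 weeks; the sources used here give neither strain nor sex. The remaining sample used was chromatin immunoprecipitation (ChIP) of MyoD, the basic helix-loop-helix factor of muscle, in 2-day myotubes, which its label describes as taken from an earlier sample.

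Autophagy encloses cytoplasm in a double membrane, the autophagosome, and delivers it to the lysosome for digestion. ULK kinases start the process, a lipid kinase complex with Becn1 marks the membrane, and an enzyme cascade that resembles ubiquitin conjugation equips it with proteins that bind cargo receptors. The lysosome supplies acid hydrolases behind a membrane of heavily glycosylated proteins, and in skeletal muscle its failure causes disease, as in Pompe disease, where the glycogen-digesting enzyme encoded by Gaa is lacking.

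Expression was given as FPKM, a read level corrected for transcript length and library size, with 1 value per condition. No difference therefore had a replicate check here. Calls, p-values and q-values are those of the authors' deposited table, standard errors (SE) are implied by its test statistics, and a log2 value above 0 is higher in 2-day myotubes than in growing myoblasts. A call went with a q of at most 0.05, which in that table meant a p of at most 0.0119. In bulk RNA of this kind, fewer cells of a type and less RNA per cell cannot be told apart. The depth of the RNA libraries is unknown.

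Differentiation markers moved with the labels. All 6 muscle differentiation markers, Myog, Ckm, Myh3, Acta1, Tnnc2 and Mef2c, were called higher in myotubes in the authors' deposited table, and 3 of 4 myoblast markers, Pax7, Myf5 and Met, were called lower, of which Myf5 was not called after centring on the median gene (q = 0.0883). Macrophages are rich in lysosomes, and of 10 macrophage markers 4 (Emr1, Lyz2, Aif1 and Tyrobp) were listed at 0 in both conditions. The 10 summed to 25.3 FPKM in myotubes and 22.0 in myoblasts, of which Itgam made up 24.3 and 20.6. The next in myoblasts, Cd14, was listed at 0 in myotubes and 1.00 in myoblasts and was called lower in the authors' deposited table. In myotubes the next was Fcgr1, at 0.65 FPKM there and 0.27 in myoblasts. The 6 fibroblast markers summed to 1.97 FPKM in myotubes and 8.39 in myoblasts, Thy1 among them was called lower in that table, and Lum was listed at 0 in both conditions. The part of other cell types in the results was not tested.

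Most of the 34 genes were not called. The authors' deposited table had 1 of them called higher, Map1lc3a, and 1 lower, Wipi1, where 6.52% of all tested genes were called higher and 17.3% lower. The members' shares were 2.94% in each direction, and 5.88% in either, against 23.9% of all tested genes. Among tested genes with a mean of at least 10 FPKM, as 32 of the 34 had, 7.01% were called higher and 16.8% lower. By log2 fold change, 17 members of the set lay above 0 and 17 below in the authors' deposited table. The median log2((FPKM 2-day + 1)/(FPKM growth + 1)) of the 34 was 0.00022, with quartiles of -0.35 and 0.55, while 15146 tested genes with a mean of at least 1 FPKM had a median of -0.37 and quartiles of -0.99 and 0.21. The members' summed level was 4640 FPKM in myotubes and 4188 in myoblasts, which is 1.11-fold.

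Most genes lay below 0: over the 15416 tested genes with a level in both conditions, the log2 fold change had a median of -0.41 in the authors' deposited table. Relative to that median gene 28 members lay above and 6 below (Wipi1, Atg10, Tfe3, Lamp2, Npc2 and Ctsb). With the fold changes of the authors' deposited table centred on it, 3 members were called higher, Map1lc3a, Atg13 and Tfeb, and 0 lower, where 9.94% of tested genes were called higher and 10.2% lower. The call of Wipi1 was lost there (q = 0.0988).

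A missing call does not show that a gene stayed level. The SE of the members' log2 fold changes had a median of 0.52 and ran from 0.29 to 0.78, and at the median SE only a log2 change of at least 1.31 would have been called. Of the 32 members not called, the 95% interval included a 2-fold rise for 14 and a 2-fold fall for 18. It lay within 2-fold either way for 4.

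**Figure D1:**
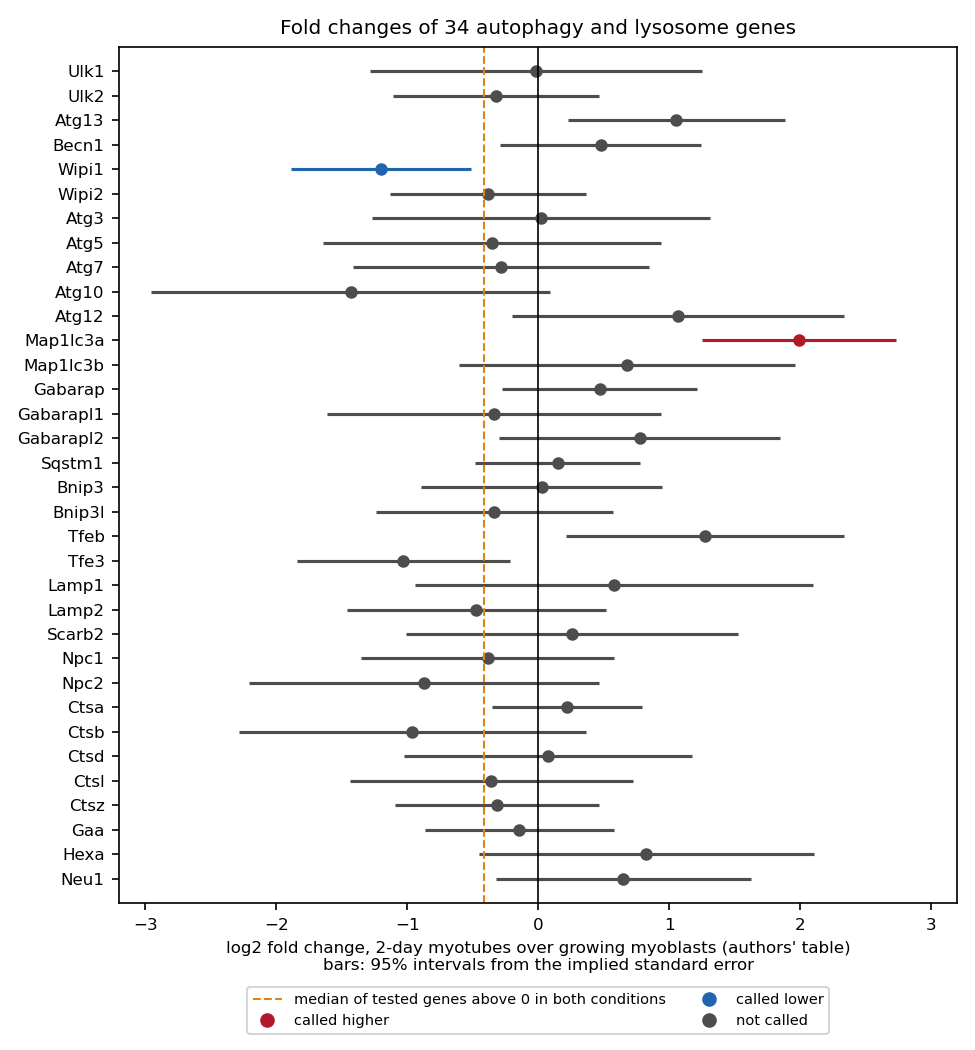
Log2 fold change of each of the 34 genes, 2-day myotubes over growing myoblasts, from the authors' deposited table, with 95% intervals from the implied standard error. Map1lc3a is the 1 gene called higher and Wipi1 the 1 called lower, and the dashed line at -0.41 marks the median of tested genes, above which 28 members lie.

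As a set the 34 genes were well expressed. Their median level was 37.7 FPKM in myotubes and 44.0 in myoblasts, where all tested genes had medians of 12.7 and 17.9 in those conditions. In both conditions 26 of the 34 exceeded the median tested gene, and 10 had a mean of at least 100 FPKM. Sqstm1 stood highest, at 1181 FPKM in myotubes and 1065 in myoblasts, and Atg10 lowest, at 1.69 and 4.56 in those conditions.

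**Figure D2:**
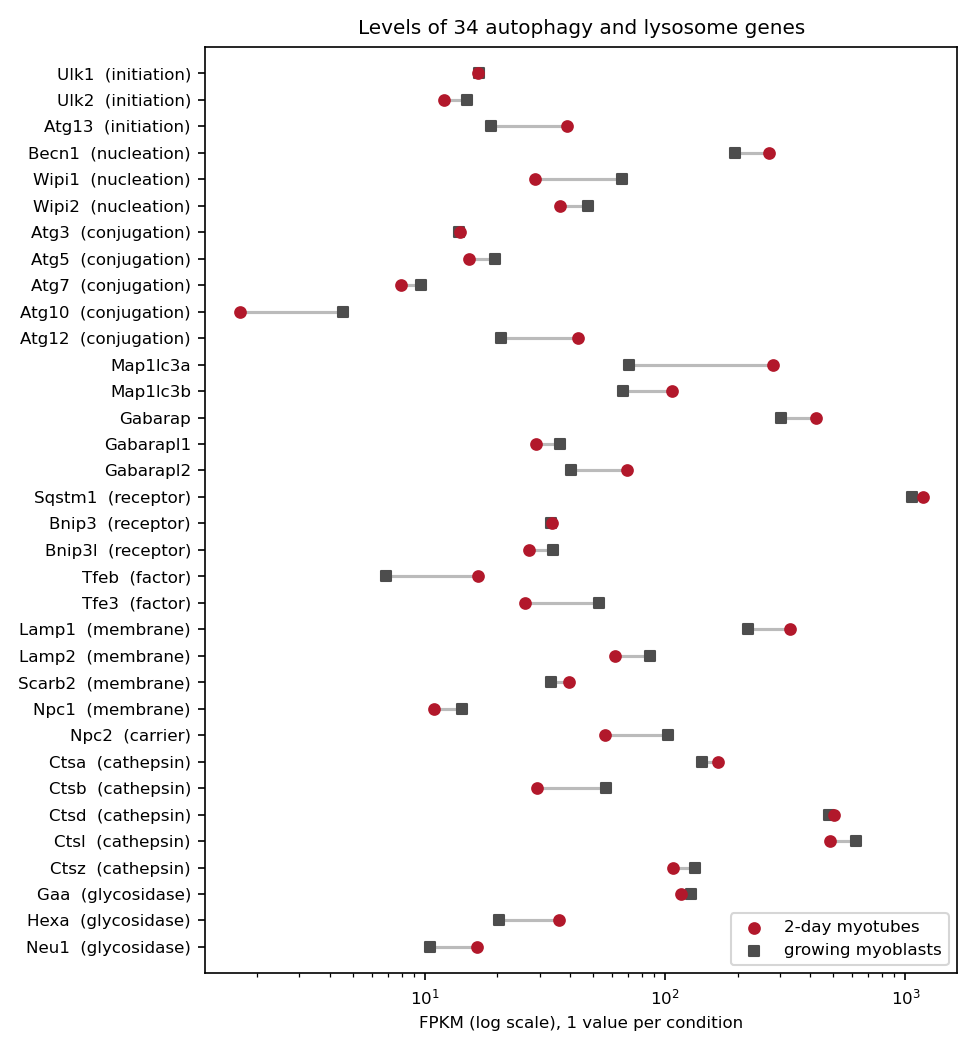
FPKM of each gene on a log scale in 2-day myotubes (red circles) and growing myoblasts (grey squares), ordered by role, with 1 value per condition. The gap is widest on the rising side for Map1lc3a (281 and 70.5 FPKM) and most pairs lie close together.

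None of the 3 genes of the initiating kinase complex was called in the authors' deposited table. Ulk1, a kinase that receives the starvation signal, was at 16.5 FPKM in myotubes and 16.7 in myoblasts. Its paralog Ulk2 was at 11.9 and 14.9 FPKM in those conditions. Atg13, the scaffold that holds the kinase complex together, was at 39.0 FPKM in myotubes and 18.8 in myoblasts (log2 1.05, SE 0.42, q = 0.0524, authors' deposited table). It lay just outside the threshold and was called higher after centring (q = 0.00479).

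At the nucleation step, Becn1, a subunit of the class III phosphatidylinositol 3-kinase complex, was at 271 FPKM in myotubes and 194 in myoblasts with no call in the authors' deposited table (log2 0.48, SE 0.39). Wipi1 and Wipi2 encode related proteins that bind the lipid made by that kinase. Wipi1 had 28.6 FPKM in myotubes and 65.9 in myoblasts, a 2.30-fold fall (log2 -1.20, SE 0.35, q = 0.00455, authors' deposited table). Wipi2, which recruits the conjugation machinery, had 36.5 FPKM in myotubes and 47.6 in myoblasts and was not called in that table (log2 -0.38, SE 0.38). Wipi1 was the more abundant of the pair in myoblasts and the less abundant in myotubes.

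The conjugation genes, none of them called in the authors' deposited table, included the least abundant member. Atg7, the E1-like enzyme, was at 7.92 FPKM in myotubes and 9.63 in myoblasts, and Atg3, an E2-like enzyme, at 13.97 and 13.79. Atg5, part of the conjugate that works on the growing membrane, was at 15.2 FPKM in myotubes and 19.5 in myoblasts. Atg12, the ubiquitin-like protein that is joined to Atg5, was at 43.5 FPKM in myotubes and 20.7 in myoblasts (log2 1.07, SE 0.65, q = 0.247, authors' deposited table), and Atg10, the E2-like enzyme that joins them, was at 1.69 and 4.56 (log2 -1.43, SE 0.78, q = 0.182). The values of Atg12 and Atg10 each differed more than 2-fold between the conditions.

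Map1lc3a, which encodes LC3A, a protein of the autophagosome membrane, was the 1 member called higher in the authors' deposited table. It had 281 FPKM in myotubes and 70.5 in myoblasts, a 3.99-fold rise (log2 2.00, SE 0.38, q = 3.36e-06, authors' deposited table). Its call held after centring and at a q of 0.01. Map1lc3b (LC3B), the form most used as an autophagy marker, had 107 FPKM in myotubes and 66.8 in myoblasts (log2 0.68, SE 0.65, q = 0.515, authors' deposited table).

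Gabarap, which encodes a protein that binds receptors and late autophagy factors, was at 422 FPKM in myotubes and 305 in myoblasts (log2 0.47, SE 0.38, q = 0.417, authors' deposited table). Gabarapl2 (GATE-16) was at 69.3 FPKM in myotubes and 40.4 in myoblasts, and Gabarapl1 at 29.0 and 36.6, neither called in the authors' deposited table.

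Map1lc3a shares a merged locus on mm9 chromosome 2 from 155062268 to 155183166 with 2 other tested genes. Pigu, one of them, was at 18.5 FPKM in myotubes and 33.1 in myoblasts, and Dynlrb1, the other, at 247 and 154. Neither was called in the authors' deposited table, and their log2 fold changes there were -0.84 (SE 0.60) and 0.68 (SE 0.39). The sources used here do not say how reads of overlapping genes or near-identical copies were assigned. Among the 23 members alone in their locus 0 were called higher and 1 lower. The shares of all tested genes, in any locus, were 6.52% and 17.3%. Shares among tested genes alone in their locus were not counted.

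Cargo receptors link their load to the autophagosome. Sqstm1, which encodes p62 and gathers ubiquitinated proteins, was at 1181 FPKM in myotubes and 1065 in myoblasts (log2 0.15, SE 0.32, authors' deposited table), above 99.1% and 98.9% of the tested genes in those conditions. Its 95% interval, from -0.48 to 0.78, is one of the 4 that stayed within 2-fold. Bnip3 and Bnip3l (NIX), receptors on mitochondria, were not called in the authors' deposited table. Bnip3 was at 33.9 FPKM in myotubes and 33.3 in myoblasts, and Bnip3l at 27.05 and 34.09.

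Tfeb and Tfe3 encode related basic helix-loop-helix zipper factors that activate lysosomal genes through a palindromic element whose core is CACGTG. They lay on opposite sides. Tfeb was at 16.6 FPKM in myotubes and 6.85 in myoblasts (log2 1.28, SE 0.54, q = 0.0693, authors' deposited table). Tfe3 was at 25.9 FPKM in myotubes and 52.9 in myoblasts (log2 -1.03, SE 0.42, q = 0.0542, authors' deposited table). Neither passed the threshold, and the 95% interval of neither included 0. After centring Tfeb was called higher (q = 0.0132) and Tfe3 was not called (q = 0.334). The pair summed to 42.5 FPKM in myotubes and 59.8 in myoblasts.

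Since these factors read CACGTG, promoters of the members were searched for it in the RefSeq promoter table of GRCm38.p6, which holds 250 bases before and 50 after each annotated start. The table held 28 of the 34 genes by symbol, and did not hold Map1lc3a, Atg12, Ctsb, Bnip3l, Becn1 and Npc1. Of the 28 genes 9 (32.1%) had CACGTG in a window, against 8.09% of all 27025 genes of the table. Among genes of the table with a mean of at least 10 FPKM, a backdrop chosen after seeing the data, the share was 12.6% of 5808. The palindrome reads alike on both strands. The longer form TCACGTGA was in 3 of 28 (10.7%), against 1.12% of all genes. The full element, which adds G before and C after that form, was in 0 of 28, against 0.37%. In the backdrop of genes with a mean of at least 10 FPKM the shares of these forms were 2.60% and 0.91%. A match describes letters in a window and is not a binding site.

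Lamp1 had 4 copies of CACGTG, beginning 61, 45, 28 and 15 bases before the annotated start, more than any other member. Ctsd had 2, of which one lies in TCACGTGA, and Gaa had 1. Gabarapl2, which had a MyoD summit near its start, and Wipi1, the gene called lower, are shown for contrast and had none. The 250 bases before the start of these 5 genes are given 5′ to 3′ along the gene, with CACGTG and CAGCTG in capitals.
Lamp1, chr8:13158911-13159160, + strand: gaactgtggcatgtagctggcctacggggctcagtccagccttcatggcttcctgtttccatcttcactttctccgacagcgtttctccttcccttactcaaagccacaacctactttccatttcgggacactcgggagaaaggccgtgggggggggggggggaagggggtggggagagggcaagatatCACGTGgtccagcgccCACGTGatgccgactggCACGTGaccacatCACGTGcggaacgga
Ctsd, chr7:142387828-142388077, - strand: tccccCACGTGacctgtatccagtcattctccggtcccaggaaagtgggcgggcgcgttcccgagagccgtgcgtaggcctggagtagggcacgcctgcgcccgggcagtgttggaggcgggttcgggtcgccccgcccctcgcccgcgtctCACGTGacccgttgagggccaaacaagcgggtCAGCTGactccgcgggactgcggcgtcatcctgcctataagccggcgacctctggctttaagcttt
Gaa, chr11:119267713-119267962, + strand: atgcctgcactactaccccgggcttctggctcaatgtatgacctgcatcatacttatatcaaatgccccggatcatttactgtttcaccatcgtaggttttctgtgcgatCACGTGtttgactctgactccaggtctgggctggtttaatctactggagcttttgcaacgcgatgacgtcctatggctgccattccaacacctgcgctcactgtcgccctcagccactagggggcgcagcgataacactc
Gabarapl2, chr8:111940453-111940702, + strand: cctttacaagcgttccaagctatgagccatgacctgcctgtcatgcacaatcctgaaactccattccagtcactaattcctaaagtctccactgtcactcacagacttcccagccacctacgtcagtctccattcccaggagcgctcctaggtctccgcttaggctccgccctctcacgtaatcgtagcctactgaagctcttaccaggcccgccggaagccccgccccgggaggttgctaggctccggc
Wipi1, chr11:109611390-109611639, - strand: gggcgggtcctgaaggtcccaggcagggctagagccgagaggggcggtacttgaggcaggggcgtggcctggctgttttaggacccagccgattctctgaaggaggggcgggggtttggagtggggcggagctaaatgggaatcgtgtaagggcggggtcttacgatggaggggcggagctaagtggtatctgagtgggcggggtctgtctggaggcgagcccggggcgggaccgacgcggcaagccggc

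The other carriers of CACGTG were Atg3, Atg5, Atg7, Bnip3, Ctsa and Ctsl. One site of each is shown with up to 10 bases on either side and the 6-base core in capitals. In the sites of Atg3 and Ctsa that are shown, the core is part of TCACGTGA.
Atg3, chr16:45158748-45158773, + strand: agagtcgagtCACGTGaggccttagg
Atg5, chr10:44268315-44268340, + strand: gagcgcttgcCACGTGgtcttggtga
Atg7, chr6:114670954-114670979, + strand: tattggtggtCACGTGtgcagtaagt
Bnip3, chr7:138909599-138909624, - strand: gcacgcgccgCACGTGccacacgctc
Ctsa, chr2:164833751-164833776, + strand: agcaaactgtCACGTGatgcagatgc
Ctsl, chr13:64370741-64370766, - strand: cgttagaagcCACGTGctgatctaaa

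Expression of the genes with and without CACGTG is set side by side here with no test. The authors' deposited table called 0 of the 9 genes with it, against 23.9% of all tested genes. Of the 9 genes 5 lay above 0, and their median log2((FPKM 2-day + 1)/(FPKM growth + 1)) was 0.02. The 19 genes without it had 9 above 0 and a median of -0.02. Wipi1, called lower, is among these 19, and Map1lc3a, called higher, is not in the promoter table. MyoD binds E-boxes of the form CANNTG, of which CACGTG is also an example, and CAGCTG is the form it is best known for. CAGCTG was in 6 of the 28 genes (21.4%), against 18.3% of all genes, and CANNTG in 21 of 28 (75%), against 74.99%. Among genes of the promoter table with a mean of at least 10 FPKM the shares were 17.7% and 65.6%.

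No gene of the lysosomal membrane or of cholesterol export was called in the authors' deposited table. Lamp1, whose product lines the lysosome and whose promoter carries the 4 copies of CACGTG, was at 330 FPKM in myotubes and 221 in myoblasts (log2 0.58, SE 0.78). The related Lamp2, lost in Danon disease of heart and muscle, was at 61.98 FPKM in myotubes and 86.04 in myoblasts (log2 -0.47, SE 0.50, authors' deposited table). Scarb2 (LIMP-2), which carries beta-glucocerebrosidase to the lysosome, was at 39.9 FPKM in myotubes and 33.3 in myoblasts. The cholesterol exporter Npc1 was at 10.9 FPKM in myotubes and 14.2 in myoblasts, and Npc2, which hands cholesterol to it, was at 56.2 and 103 (log2 -0.87, SE 0.68, q = 0.398, authors' deposited table).

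Cathepsins, the lysosomal proteases, summed to 1294 FPKM in myotubes and 1436 in myoblasts, and none was called in the authors' deposited table. The log2 ratio of these sums was -0.15, and 0.26 relative to the median gene. Ctsd, the aspartic protease, was at 505 FPKM in myotubes and 479 in myoblasts. The cysteine protease Ctsl was at 486 FPKM in myotubes and 623 in myoblasts, so that the order of these 2 differed between conditions, with no call for either in the authors' deposited table. Ctsd made up 39.1% of the cathepsin sum in myotubes and 33.4% in myoblasts, and Ctsl 37.6% and 43.4% in those conditions. Ctsa, a carboxypeptidase that also protects Neu1, was at 166 FPKM in myotubes and 142 in myoblasts, and Ctsz, another carboxypeptidase, at 107 and 134. Ctsb was at 29.2 FPKM in myotubes and 56.7 in myoblasts (log2 -0.96, SE 0.67, q = 0.335, authors' deposited table).

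Among enzymes that cleave sugars, Gaa, the acid alpha-glucosidase of glycogen, was at 116 FPKM in myotubes and 128 in myoblasts (log2 -0.14, SE 0.37, authors' deposited table). Its 95% interval, from -0.87 to 0.58, stayed within 2-fold. Hexa, a subunit of beta-hexosaminidase, was at 36.1 FPKM in myotubes and 20.3 in myoblasts, and the sialidase Neu1 at 16.5 and 10.5. Neither was called in the authors' deposited table (q = 0.404 for Hexa and q = 0.384 for Neu1).

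Other genes of the pathway were read from 8 lists of 198 genes, of which 186 were tested. Called higher were 15 (8.06%) and called lower 16 (8.60%) by the authors' deposited table, against 6.52% and 17.3% of all tested genes. After centring 24 were called higher and 6 lower, where 9.94% and 10.2% of all tested genes were. The list of autophagosome-lysosome fusion genes had 0 of 15 called in either direction in the authors' deposited table. After centring it had 1 called higher and 0 lower.

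Among 23 other core autophagy genes the authors' deposited table called 2 higher (8.70%) and 1 lower (4.35%), against 6.52% and 17.3% of all tested genes. Wdr45, a relative of the Wipi genes, and Atg4a, a protease of the autophagy machinery, were the genes called higher. Vmp1, an endoplasmic reticulum protein of autophagosome formation, was the gene called lower. Atg4a was at 22.6 FPKM in myotubes and 5.94 in myoblasts (log2 1.93, SE 0.55, q = 0.00379). Wdr45 was at 70.0 FPKM in myotubes and 37.4 in myoblasts (log2 0.91, SE 0.33, authors' deposited table). Vmp1 was at 157 FPKM in myotubes and 273 in myoblasts and was not called after centring (q = 0.416). The core list then had 3 called higher and 0 lower, against 9.94% and 10.2% of all tested genes. Of 18 other selective autophagy receptors, the authors' deposited table had 3 higher (16.7%) and 0 lower, against 6.52% and 17.3% of all tested genes. After centring 4 of the 18 were called higher, against 9.94% of all tested genes. Pink1, the kinase that marks damaged mitochondria, was at 137 FPKM in myotubes and 33.2 in myoblasts (log2 2.04, SE 0.35, q = 2.07e-07, authors' deposited table). Stbd1, a glycogen-binding receptor, was at 125 FPKM in myotubes and 42.4 in myoblasts, and Calcoco1, a receptor for parts of the endoplasmic reticulum, at 271 and 99.4.

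Of 20 V-ATPase subunits, which form the pump that acidifies the lysosome, the authors' deposited table had 4 higher (20%) and 2 lower (10%) by its calls. The shares of all tested genes were 6.52% and 17.3%. Of the 20 subunits 16 lay above 0 as deposited and 16 relative to the median gene. Atp6v1c2 was at 19.1 FPKM in myotubes and 1.91 in myoblasts (log2 3.32, SE 1.12, authors' deposited table), in a shared locus. Atp6v0e2 was at 22.9 and 4.26 FPKM in those conditions (log2 2.43, SE 0.71, authors' deposited table). Atp6v0a1 was at 79.5 FPKM in myotubes and 32.8 in myoblasts (log2 1.28, SE 0.37, authors' deposited table), while the catalytic subunit gene Atp6v1a was at 33.5 and 71.6 (log2 -1.09, SE 0.31). The remaining calls in that table, named after their values were seen, were Atp6v0b, higher, and Tcirg1, lower. Neither lower call of the list held after centring, with q = 0.107 for Atp6v1a and q = 0.145 for Tcirg1. The list then had 5 called higher, against 9.94% of all tested genes.

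Of 38 other lysosomal hydrolases the authors' deposited table called 7 lower (18.4%) and 1 higher (2.63%). The shares of all tested genes were 17.3% and 6.52%. The list median log2((FPKM 2-day + 1)/(FPKM growth + 1)) was -0.46, near the -0.37 of all genes. The cathepsin gene Ctsh was at 10.4 FPKM in myotubes and 66.6 in myoblasts (log2 -2.67, SE 0.39, q = 5.14e-10, authors' deposited table). Ids, the iduronate sulfatase, was at 6.11 FPKM in myotubes and 21.7 in myoblasts, Aga, which trims glycoprotein remnants, at 11.8 and 43.0, and Glb1, the acid beta-galactosidase, at 8.93 and 31.3, under the more abundant of its 2 tested entries. Gusb, Arsb and Galc, also lower, and Ctsc, higher, complete the calls in that table and were named after their values were seen. After centring 3 of the 7 lower calls held, those of Ctsh, Ids and Glb1. The list then had 2 called higher, against 9.94% of all tested genes.

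Of 26 lysosomal transporters and membrane proteins 3 (11.5%) were called lower (Laptm5, Cd68 and 0610031J06Rik) and 0 higher by the authors' deposited table. The shares of all tested genes were 17.3% lower and 6.52% higher. Of the 3 lower calls that of Cd68 alone held after centring, and 1 gene of the list was then called higher, against 9.94% of all tested genes. Cd68, a glycoprotein best known from macrophage lysosomes, was at 2.80 FPKM in myotubes and 11.0 in myoblasts. Among 13 lysosomal sorting genes the authors' deposited table called 1 higher and 1 lower (7.69% each), against 6.52% and 17.3% of all tested genes. Sort1, a sorting receptor, was the gene called higher, at 31.1 FPKM in myotubes and 9.39 in myoblasts. Gnptab, which makes the mannose 6-phosphate tag of lysosomal enzymes, was the gene called lower, at 5.12 and 29.6 in those conditions. After centring 2 of the 13 were called higher and 1 lower, against 9.94% and 10.2% of all tested genes.

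Nutrient sensing and TFEB regulation, a list of 33 tested genes, held 4 that were called higher and 2 that were called lower by the authors' deposited table. These are 12.1% and 6.06% of the list, against 6.52% and 17.3% of all tested genes. Rragd, a GTPase that brings mTORC1 and TFEB to the lysosome, was at 49.6 FPKM in myotubes and 21.8 in myoblasts (log2 1.18, SE 0.41, q = 0.0196, authors' deposited table). Flcn, folliculin, which acts on that GTPase, was at 53.3 FPKM in myotubes and 23.6 in myoblasts (log2 1.17, SE 0.45, q = 0.0397, authors' deposited table). Prkaa2, a catalytic subunit of AMP-activated kinase, was at 11.4 FPKM in myotubes and 1.62 in myoblasts, and Sesn1, a sestrin that restrains mTORC1, at 15.9 and 5.75. Fnip2 and Prkab1 were the genes called lower in that table, named after their values were seen, and Prkab1 was not called after centring. The list then had 6 called higher and 1 lower, against 9.94% and 10.2% of all tested genes.

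Proteasome subunits, the other main route of protein degradation, had 1 of 31 (3.23%) called higher (Psmc3) and 0 lower by the authors' deposited table. The shares of all tested genes were 6.52% and 17.3%. The list median log2((FPKM 2-day + 1)/(FPKM growth + 1)) was 0.10. Psmc3, an ATPase of the regulatory particle, was at 701 FPKM in myotubes and 419 in myoblasts. Relative to the median gene 28 of 31 lay above, as did 28 of the 34 autophagy and lysosome genes. The difference between these lists was not tested.

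**Figure D3:**
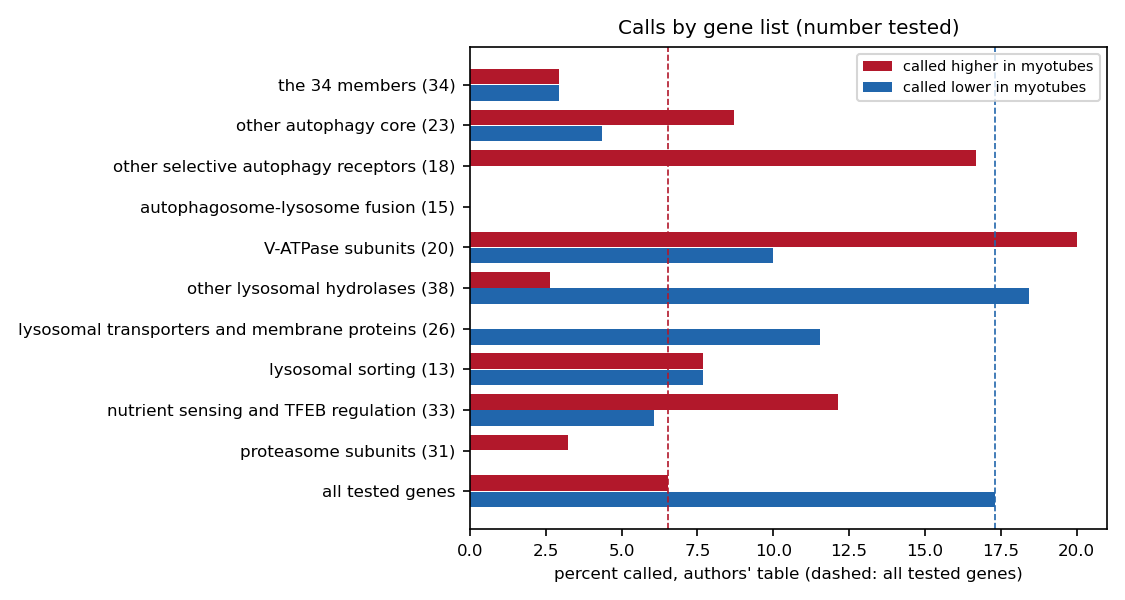
Percent of tested genes called higher (red) or lower (blue) in 2-day myotubes in the authors' deposited table, for the 34 genes, each other pathway list and proteasome subunits, with all tested genes at the bottom and as dashed lines. The 34 genes had 2.94% in each direction, where all tested genes had 6.52% higher and 17.3% lower.

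MyoD peaks were joined to the genes by position. Genes with a summit inside the locus or at most 10 kb outside it were counted as having a peak, which held for 18 of the 34 genes (52.9%), against 38.9% of 15930 tested genes on the chromosomes with peaks. Longer loci hold more peaks: with tested genes split by locus length into 3 groups of about equal size, 21.1%, 37.0% and 58.4% had one in the short, middle and long group. The members had 3 of 7 (42.9%), 7 of 15 (46.7%) and 8 of 12 (66.7%) in the same order. Among genes alone in their locus the members had 12 of 23 (52.2%), against 32.8% of tested genes. No test of these differences was made. By call, a peak lay at 1 of 1 member called higher, 1 of 1 called lower and 16 of 32 not called, against 58.6%, 38.3% and 37.3% of all tested genes with those calls.

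**Figure D4:**
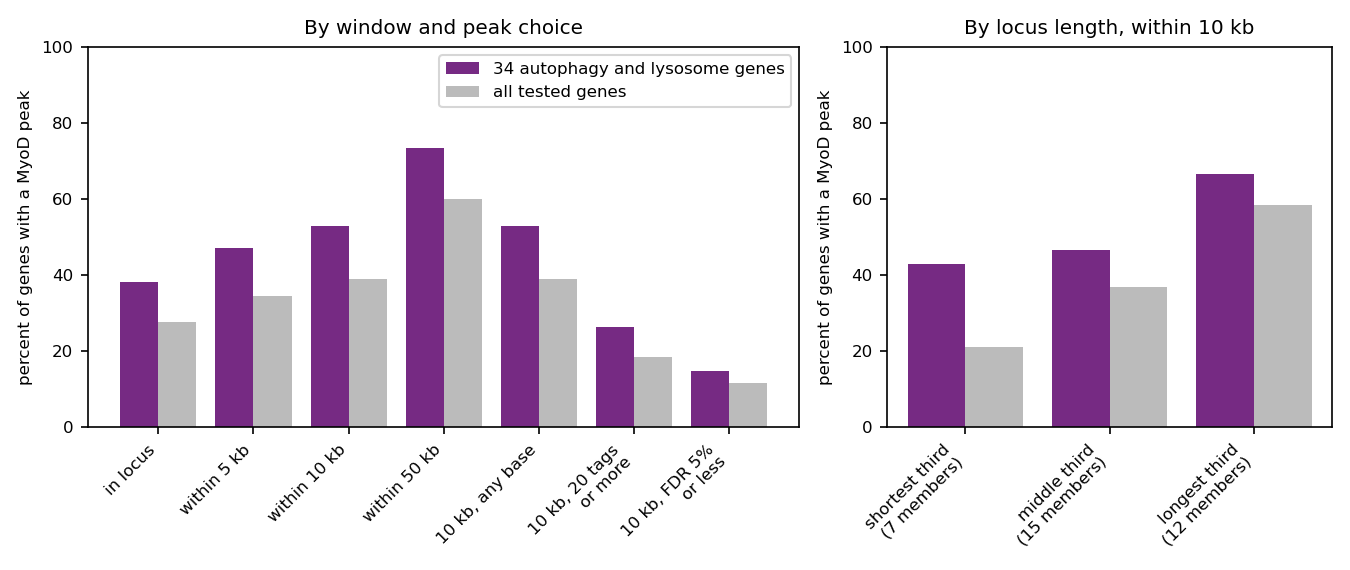
Percent of genes with a MyoD peak, for the 34 genes (purple) and all tested genes (grey). Left, by window and by choice of peaks. Right, in 3 groups of locus length with a 10 kb window. Within 10 kb the shares are 52.9% for the 34 genes and 38.9% for all tested genes.

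The locus of Map1lc3b in the table is a merged region of 4435366 bp shared by 70 tested genes, and the 93 peaks there cannot be tied to it. The other 17 genes with a peak had 24 peaks, which held 7 to 40 tags with a median of 17, where all 10756 peaks had a median of 14. Their fold enrichment over the regional background ran from 5.76 to 35.9 with a median of 11.4, where all peaks had 15.3. Of the 24 peaks 4 (16.7%) had a false discovery rate of at most 5%, against 19.4% of all peaks. All of these are the authors' own values. The list came from 1 call on 1 sample, so peaks had no replicate check.

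Those 4 peaks lay at Lamp1, Map1lc3a, Ctsd and Ctsl. The peak at Lamp1, on mm9 chromosome 8 from 13188700 to 13189496, had 40 tags and 21.5-fold enrichment, and its summit lay 29970 bp into the locus from the 5′ end. This locus is shared with another tested gene, Grtp1, and which gene the peak belongs to cannot be told apart. At Map1lc3a a peak on chromosome 2 from 155091061 to 155091787 had 30 tags and 24.7-fold enrichment, and a second, from 155109591 to 155110116, had 38 tags and 10.2-fold. Both lay in the locus shared with Pigu and Dynlrb1, and which gene they belong to cannot be told apart. Of 3 peaks at Ctsd, the one with the most tags, on chromosome 7 from 149560324 to 149561297, had 33 tags and 10.2-fold enrichment. The other two had 7 tags each, with 11.7-fold and 21.4-fold enrichment. The locus of Ctsd is shared with another tested gene too, and which gene its peaks belong to cannot be told apart.

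Ctsl, Gaa and Gabarapl2 had a summit within 1 kb of the 5′ end of their locus. By this distance, chosen after seeing the data, they are 3 of 21 members (14.3%) that are alone in their locus and have a strand in the promoter table, against 10.2% of 6456 such genes. At Ctsl the peak on mm9 chromosome 13 from 64471152 to 64471888 had 32 tags and 15.3-fold enrichment, and its summit lay 92 bp inside the 5′ end. At Gaa the peak on chromosome 11 from 119129050 to 119129476 had 22 tags and 5.76-fold enrichment, with its summit 17 bp inside the 5′ end. The Gabarapl2 peak on chromosome 8, from 114465212 to 114465481, had 25 tags and 8.27-fold enrichment, and its summit lay 698 bp inside. Ctsl and Gaa also carry CACGTG in the promoter windows above, which are in another build and were not aligned to the peaks. The authors' deposited table called none of these 3 genes.

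Wipi1, the gene called lower, had its peak outside the locus, 8571 bp before the 5′ end, with 16 tags and 8.44-fold enrichment. Tfeb had 2 peaks inside its locus, with 14 and 20 tags, and Tfe3 had none. Atg7 had 3 peaks of 7 to 13 tags in a locus of 217284 bp, Atg5 had 1 of 18 tags with 27.5-fold enrichment, and Atg13 had 1 of 15 tags, which lay 455 bp from the 3′ end of its locus. Ctsb had 2 peaks, one of which reached 35.9-fold enrichment on 10 tags. They lay in a locus shared with another tested gene, and which gene they belong to cannot be told apart. Gabarap, Scarb2, Npc2, Ctsz and Hexa had 1 peak each, and the locus of Ctsz is shared with another tested gene too. Sqstm1, the most abundant member, had no peak in its locus or within 10 kb, nor did Ulk1, Ulk2, Becn1, Wipi2, Atg3, Atg10, Atg12, Gabarapl1, Bnip3, Bnip3l, Lamp2, Npc1, Ctsa and Neu1.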

How the data were processed

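Of 7 samples, each in a group of its own, RNA of 2-day myotubes, RNA of growing myoblasts and MyoD ChIP of 2-day myotubes were used; the 4 histone samples were not analysed here. Whether p-values reflect separate cultures is not known: the labels' protocol states sequencing in duplicates, and the sources used here do not say how these were combined. No antibody against MyoD is among those the labels list.

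The authors deposited FPKM values per gene and condition in a table laid out as Cuffdiff writes it. The submitters' processing notes list Cuffdiff, CASAVA 1.7.0 and mm9. The p-values and q-values in it are the authors' deposited test results. MACS called the peaks, per the file headers (version 1.3.7 in the submitters' processing notes), at a p-value threshold of 1.00e-05, from 8637045 ChIP tags, 4049890 of them unique, and 9129012 control tags, 4371189 of them unique. Per the file headers, each peak has a count of tags, a score that is the negative log10 of its p-value multiplied by 10, a fold enrichment, which is a ratio to regional background, and a false discovery rate in percent. What the control was is unknown.

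The SE was the absolute ratio of the log2 fold change in the authors' table to its test statistic, whose sign runs opposite; p-values recomputed from it lay within 2.68e-06 of the deposited ones. Intervals are 95% normal intervals. The test is the authors' own, since 1 value per condition allows none here. Medians used a pseudocount of 1 and a mean of at least 1 FPKM, and fold changes on that scale understate the change of low genes. Centring subtracted the median log2 fold change and adjusted recomputed p-values by the Benjamini-Hochberg method over all tested genes. It was tested on simulated data, which cannot show whether the median gene was unchanged in these cells. Where a symbol had 2 tested entries the more abundant was used. A locus in the table can merge several genes: 11 of the 34 share theirs with another tested gene, as do 30.4% of tested genes. Of the other named genes, Vmp1, Atp6v0b, Atp6v1c2, Glb1, Arsb, Gnptab, Prkab1, Psmc3 and Tnnc2 share theirs with another tested entry. Acta1 lies in a locus of 70 tested genes. The summit is the peak start plus its offset minus 1. Coordinates of peaks are mm9 and those of promoters GRCm38.p6, and none were converted.

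All members are named; in the other lists the called genes with the largest changes are named, up to 4 per list, provided the higher condition reached 10 FPKM and the lower 0.1 FPKM. Members and lists were chosen with earlier results of these data known. Alternatives for centring, q, filters, pseudocount, windows and peaks were tried. Python 3.11.15, pandas 2.3.3, numpy 2.4.6, scipy 1.17.1 and matplotlib 3.10.9 were used.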

Additional observations from a re-analysis of the deposited data

How the results depend on the processing

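The count of members called higher, 1 as deposited, was 3 after centring on the median log2 fold change, 3 at a q of at most 0.1, where Atg13 and Tfeb join Map1lc3a, and 0 among members alone in their locus, since Map1lc3a shares its own. The count called lower, 1 as deposited, was 0 after centring and 2 at a q of at most 0.1, where Tfe3 joins Wipi1. At a q of at most 0.01, and among members with a mean of at least 10 FPKM, both counts stayed at 1. Of all tested genes 6.52% were called higher and 17.3% lower as deposited, and 9.94% and 10.2% after centring. With a mean of at least 10 FPKM these shares were 7.01% and 16.8%. They were not counted at the other q thresholds or among genes alone in their locus. A looser q calls more genes of any kind. The members' median log2 ratio ran from -0.14 among genes alone in their locus to 0.37 relative to the median of all genes, and stayed within 0.001 of 0 with a pseudocount of 0.1 or 10 or without the filter. Of the 34 members, 13 (38.2%) had a MyoD summit in the locus, against 27.6% of all tested genes. Within 5 kb 16 (47.1%) had one, against 34.6%, and within 50 kb 25 (73.5%), against 60.0%. Counting any base of a peak gave 18 (52.9%), against 39.1%. Peaks of at least 20 tags gave 9 (26.5%), against 18.4%. A false discovery rate of at most 5% gave 5 (14.7%), against 11.7%. All these counts include Map1lc3b, whose peaks cannot be tied to it. Without Map1lc3b the last count was 4. With summits in the locus only, 0 of 1 member called lower and 12 of 32 not called had one. The other pathway genes called were 24 higher and 6 lower after centring, against 15 and 16 as deposited. The share of promoters with CACGTG was 12.6% in the backdrop of genes with a mean of at least 10 FPKM, chosen after seeing the data. No paired analysis was possible because each group holds 1 sample. Depth of the RNA libraries is unknown, and no replicate could be left out.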
